A study of Caenorhabditis elegans with 10 samples.

Results

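The 4 *C. elegans* genes whose symbol begins with *sams-* (*sams-1*, *sams-3*, *sams-4* and *sams-5*) encode S-adenosylmethionine (SAM) synthetases. They are 4 of the 46903 genes in the expression table, and they were chosen by name and not by their measured levels. RNA-seq was performed on whole animals of 4 mutant strains and their parent, with 2 libraries per strain that the methods call biological replicates. The comparison of each mutant with the parent asks how lesions in the methionine/SAM (Met/SAM) cycle change gene expression while vitamin B12 is supplied.

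The mutants were *mthf-1(ww50)* (strain VL1199), *sams-1(ww51)* (VL1200), *metr-1(ww52)* (VL1201) and *mtrr-1(ww56)* (VL1205), and the parent was *Pacdh-1::GFP;∆nhr-10* (VL868). All 5 strains carry the integrated reporter *wwIs24[Pacdh-1::GFP;unc-119(+)]*, in which the *acdh-1* promoter drives GFP, and the allele *nhr-10(tm4695)* of a nuclear hormone receptor gene. All were fed *E. coli* OP50 on plates with 20 nM vitamin B12 after an L1 arrest of 18 h and were collected after 48 h, at least 200 animals per sample, while stocks were kept at 0.64 nM. The stage is labelled L4, and by the methods the animals picked were in late L4 or had just become young adults. Each mutant is a single isolate of a chemical mutagenesis screen, picked for reporter GFP in the presence of vitamin B12 and then backcrossed to the parent.

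SAM synthetases join methionine to the adenosyl group of ATP to make SAM, the methyl donor for phosphatidylcholine, histones, RNA and many small molecules. The cycle is closed by methionine synthase (METR-1), which is kept active by MTRR-1 and remakes methionine with vitamin B12 and the methyl folate produced by MTHF-1. In *C. elegans*, *sams-1* is the synthetase best known for supporting phosphatidylcholine synthesis, and the pre-mRNAs of *sams-3*, *sams-4* and *sams-5* are known targets of the methyltransferase METT-10, whose mark at a splice site blocks their productive splicing.

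In the annotation of build WBcel235, *sams-1* (WBGene00008205) lies alone on chromosome X at 11965962 to 11969893, plus strand, with 3 protein-coding transcripts. The other 3 genes lie on chromosome IV. *sams-3* (WBGene00015538, plus strand, 5848657 to 5850843) and *sams-4* (WBGene00015540, minus strand, 5844061 to 5846369) point away from each other, and the 2287 bp between them hold only 1 annotated piRNA gene. *sams-5* (WBGene00006416) is on the minus strand at 6277433 to 6279522. Exon lengths of 61, 72, 123, 166, 383 and 410 bp recur in all 3 chromosome IV genes, and none of these lengths occurs in *sams-1*. The protein-coding transcripts share 61, 123, 383 and 410 bp, whereas 72 and 166 bp occur only in noncoding transcripts. The chromosome IV genes also have annotated noncoding transcripts, 3 for *sams-3*, 1 for *sams-4* and 1 for *sams-5*, whereas *sams-1* has 0. Among these, transcript C06E7.1c of *sams-3* keeps an intron of 369 bp and C06E7.3b of *sams-4* keeps one of 373 bp. The deposited value of a gene adds its coding and noncoding transcripts, so the levels below do not separate them. For *sams-4* that value covers 3 transcripts, whereas the annotation has 2, so C06E7.3a.2 is left out of the transcript numbers given here and of the drawing of the transcripts. How reads shared by the chromosome IV genes were divided among them could not be checked without their sequences, so their separate levels are uncertain to that extent. *sams-3* also overlaps the exons of C06E7.4, a gene on the opposite strand, by 18 bp.

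**Figure D1:**
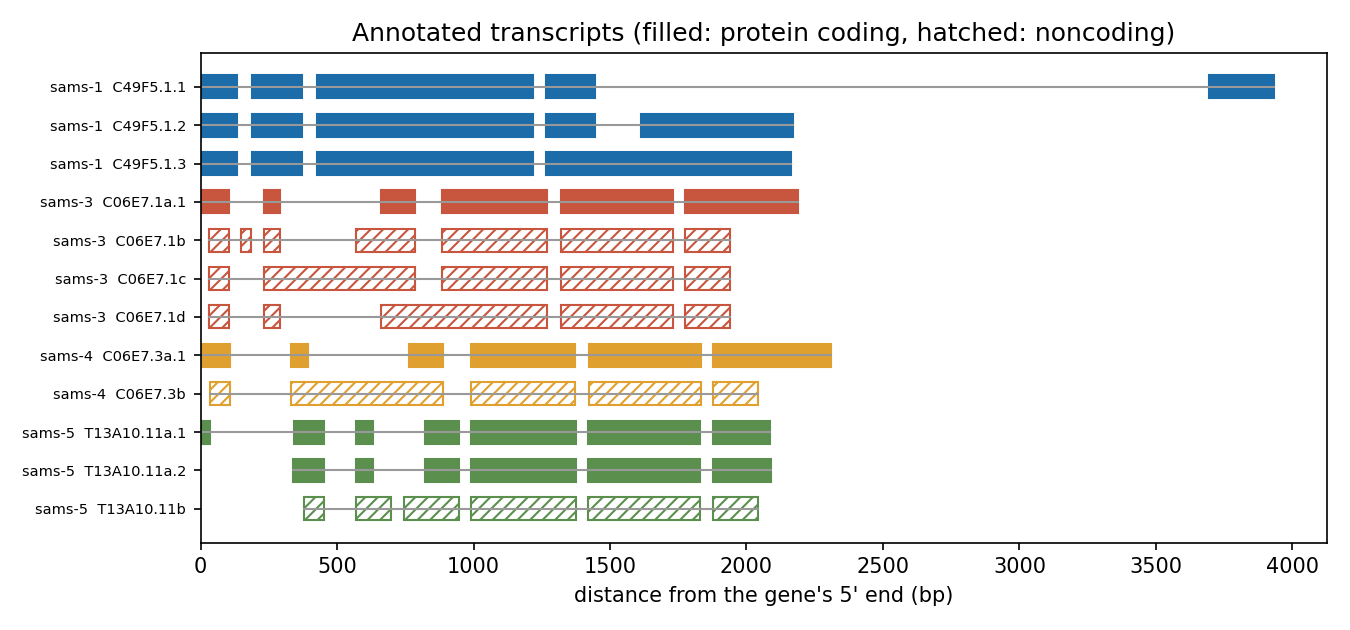
Annotated transcripts of the 4 SAM synthetase genes, drawn to scale from the 5′ end of each gene in bp, with boxes for exons and lines for introns. Filled boxes mark protein-coding transcripts and hatched boxes the 5 noncoding transcripts, which occur in *sams-3*, *sams-4* and *sams-5* and not in *sams-1*.

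Values are in TPM, a transcript abundance that is scaled by transcript length and to the same total in each library, and that can therefore be set side by side between genes. In these whole-animal samples, a lower level in the same cells and fewer cells that express a gene cannot be told apart. TPM keeps no sequencing depth, so no counting error can be given. Each library had 13752 to 14563 genes at 1 TPM or more, and the test covered the 14418 genes that averaged 1 TPM or more across libraries, all 4 *sams* genes among them. The transcripts of the mutated genes were not lower in their own strains than in the parent, and *nhr-10* was listed at 3.13 to 6.19 TPM, so these genes do not check the strain labels. *acdh-1*, whose promoter drives the reporter by which the mutants were picked, was at 0.05 and 0.18 TPM in the parent. In the mutants it was at 20.94 to 477.33 TPM. It sets the parent apart from the mutants but does not check which mutant is which.

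*sams-1* was the *sams* gene with the largest difference between every mutant and the parent. It was measured at 326 and 331 TPM in *mthf-1(ww50)*, 751 and 388 TPM in *sams-1(ww51)*, 362 and 299.85 TPM in *metr-1(ww52)* and 511 and 230.2 TPM in *mtrr-1(ww56)*, against 80.2 and 33.7 TPM in the parent. All 8 mutant libraries lay above both parent libraries, a pattern found in 12.9% of all tested genes. The mean level was 5.81, 6.51, 5.77 and 10.004 times the parent mean in *metr-1(ww52)*, *mtrr-1(ww56)*, *mthf-1(ww50)* and *sams-1(ww51)*. Replicates of this gene spread widely: the first replicate was 1.93 times the second in *sams-1(ww51)*, 2.22 times in *mtrr-1(ww56)* and 2.38 times in the parent, but 0.986 times in *mthf-1(ww50)*.

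*sams-3* showed a smaller difference with a much tighter spread. It was measured at 179.8 and 160.4 TPM in *mthf-1(ww50)*, 114.3 and 104.2 TPM in *sams-1(ww51)*, 152 and 143 TPM in *metr-1(ww52)* and 111 and 107 TPM in *mtrr-1(ww56)*, against 80.9 and 78.6 TPM in the parent. Again all 8 mutant libraries exceeded both parent libraries, as for 12.9% of all tested genes. The ratio of mean TPM to the parent was highest in *mthf-1(ww50)*, at 2.13, followed by 1.85 in *metr-1(ww52)* and 1.37 in both *sams-1(ww51)* and *mtrr-1(ww56)*.

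*sams-4* was close to *sams-3* in level and in pattern. It was measured at 159 and 123 TPM in *mthf-1(ww50)*, 93.3 and 109 TPM in *sams-1(ww51)*, 136 and 111 TPM in *metr-1(ww52)* and 90.3 and 97.3 TPM in *mtrr-1(ww56)*, against 68.8 and 62.3 TPM in the parent. All 8 mutant libraries lay above both parent libraries here too, the pattern of 12.9% of all tested genes. Mean TPM was 1.89, 1.43, 2.15 and 1.55 times the parent mean in *metr-1(ww52)*, *mtrr-1(ww56)*, *mthf-1(ww50)* and *sams-1(ww51)*.

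*sams-5* had the lowest level of the 4 genes in every library and the widest range of ratios among the paralogs of *sams-1*. It was measured at 71.1 and 77.3 TPM in *mthf-1(ww50)*, 28.8 and 16.0 TPM in *sams-1(ww51)*, 61.0 and 58.8 TPM in *metr-1(ww52)* and 33.1 and 54.02 TPM in *mtrr-1(ww56)*, against 19.4 and 16.5 TPM in the parent. Mean TPM was 4.14 times the parent mean in *mthf-1(ww50)*, 3.34 times in *metr-1(ww52)* and 2.43 times in *mtrr-1(ww56)*. In *sams-1(ww51)* the ratio was 1.25, and the 2 libraries lay on either side of the parent libraries.

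**Figure D2:**
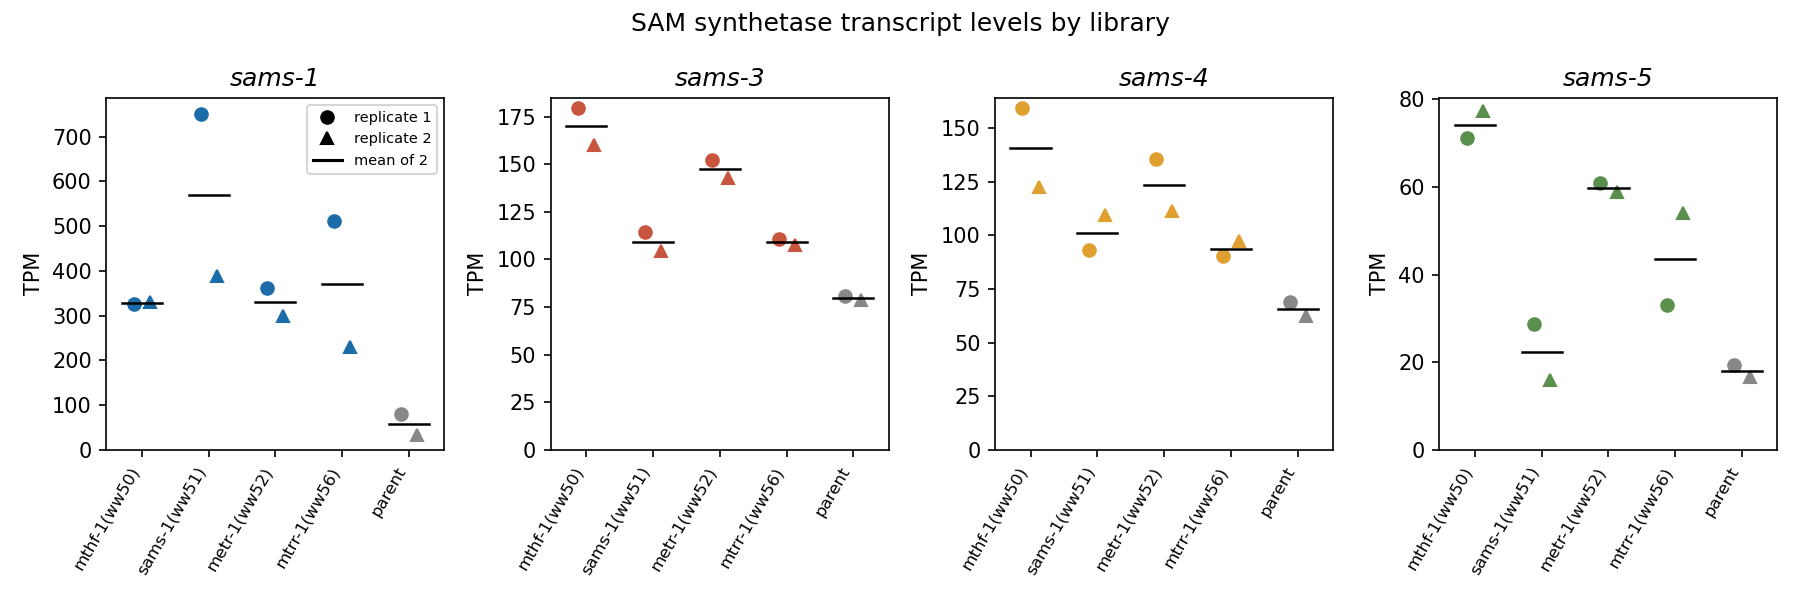
TPM of each SAM synthetase gene (1 panel per gene, each with its own axis from 0) in the 4 mutants and the parent. Circles are replicate 1, triangles replicate 2 and bars the mean of 2 libraries. All mutant libraries lie above the parent libraries for *sams-1*, *sams-3* and *sams-4* (as for 12.9% of all tested genes), whereas *sams-5* in *sams-1(ww51)* overlaps the parent.

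Each mutant was compared with the parent by limma on log2(TPM + 1), with p-values adjusted over all tested genes by the Benjamini-Hochberg method, and a gene was called where the adjusted p-value was below 0.01 and the fold change above 1.5. With 1 mean per strain and no other term, 1 of the 16 comparisons of a *sams* gene with the parent was called: *sams-3* rose in *mthf-1(ww50)* by 1.08 on the log2 scale (standard error [SE] 0.106, limma adjusted p = 0.00946). In that mutant 1 of 4 *sams* genes was called higher, while 0.153% of all tested genes were. The 3 genes not called there had log2 fold changes of 2.63 for *sams-1* (SE 0.525, limma adjusted p = 0.102), 1.08 for *sams-4* (SE 0.170, adjusted p = 0.0473) and 1.99 for *sams-5* (SE 0.306, adjusted p = 0.0442). The *sams-3* call was lost in 14 of 18 alternative fits, among them the removal of any single library, with limma adjusted p between 0.00387 and 0.113 over all 18.

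No *sams* gene was called by limma in the other 3 mutants, where the share of tested genes called higher was 0.25% in *metr-1(ww52)*, 0.111% in *mtrr-1(ww56)* and 0.0624% in *sams-1(ww51)*. These calls come from TPM and are not the authors' test, which applied DESeq2 to read counts at the same cutoffs. By that test the authors report most Met/SAM cycle genes as higher in each mutant. They count *sams-1* as a gene of the cycle, although that statement does not name it. At an unadjusted p under 0.05, 3 of 4 *sams* genes were higher in *sams-1(ww51)*, the exception being *sams-5*, and all 4 in each of the other mutants. The share of all tested genes higher at that level was 9.12% in *metr-1(ww52)*, 18.8% in *mtrr-1(ww56)*, 8.73% in *mthf-1(ww50)* and 15.2% in *sams-1(ww51)*. The log2 fold change of *sams-1* was 3.35 in *sams-1(ww51)* (limma adjusted p = 0.0659), 2.64 in *metr-1(ww52)* (adjusted p = 0.0903) and 2.70 in *mtrr-1(ww56)* (adjusted p = 0.0643), each with an SE of 0.525. For *sams-3* it was 0.88 in *metr-1(ww52)*, 0.45 in *mtrr-1(ww56)* and 0.45 in *sams-1(ww51)*, with limma adjusted p-values of 0.0161, 0.0836 and 0.107. *sams-4* had 0.90, 0.51 and 0.62 in the same 3 mutants (limma adjusted p = 0.0745, 0.135 and 0.138), and *sams-5* had 1.69, 1.198 and 0.25 (adjusted p = 0.0645, 0.0916 and 0.702).

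Across genes, the replicate differences of any pair of strains correlated positively, and with the replicate number as a block, a term that takes up what equally numbered libraries share, 4 of the 16 comparisons were called. *sams-1* rose by 3.35 in *sams-1(ww51)* (SE 0.323, blocked limma adjusted p = 0.00419) and by 2.70 in *mtrr-1(ww56)* (adjusted p = 0.0059). Replicate differences of these mutants correlated least with those of the parent, at 0.166 and 0.304 in that order. The correlation with the parent was 0.568 for *metr-1(ww52)* and 0.646 for *mthf-1(ww50)*. *sams-3* rose by 1.08 in *mthf-1(ww50)* (SE 0.079, blocked limma adjusted p = 0.00387) and by 0.88 in *metr-1(ww52)* (adjusted p = 0.00611). The block also raised the share of all tested genes called higher, to 0.409% in *metr-1(ww52)*, 3.11% in *mtrr-1(ww56)*, 0.243% in *mthf-1(ww50)* and 2.46% in *sams-1(ww51)*. *sams-4* and *sams-5* were called in no mutant by either fit, and their lowest blocked limma adjusted p-values were 0.0291 and 0.0345, both in *mthf-1(ww50)*.

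The 4 comparisons share the parent libraries, so they are not independent of each other. Averaged over the 4 mutants, *sams-1* exceeded the parent by 2.83 on the log2 scale (SE 0.415), *sams-3* by 0.71 (SE 0.0835), *sams-4* by 0.78 (SE 0.134) and *sams-5* by 1.28 (SE 0.242). None of the 4 mean differences was called without the block, with limma adjusted p-values of 0.0326, 0.015, 0.0492 and 0.0586 in that order, against 0.215% of all tested genes called higher. Before adjustment all 4 had a p under 0.05 in the higher direction, as did 16.1% of all tested genes. With the block, the means of *sams-1* and *sams-3* were called (limma adjusted p = 0.00301 for both), against 2.81% of all tested genes, and those of *sams-4* (adjusted p = 0.0166) and *sams-5* (adjusted p = 0.0272) were not. For reference, the median log2 fold change of all tested genes was 0.07 in this mean, and 0.09, 0.05, 0.12 and 0.04 in *metr-1(ww52)*, *mtrr-1(ww56)*, *mthf-1(ww50)* and *sams-1(ww51)*.

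**Figure D3:**
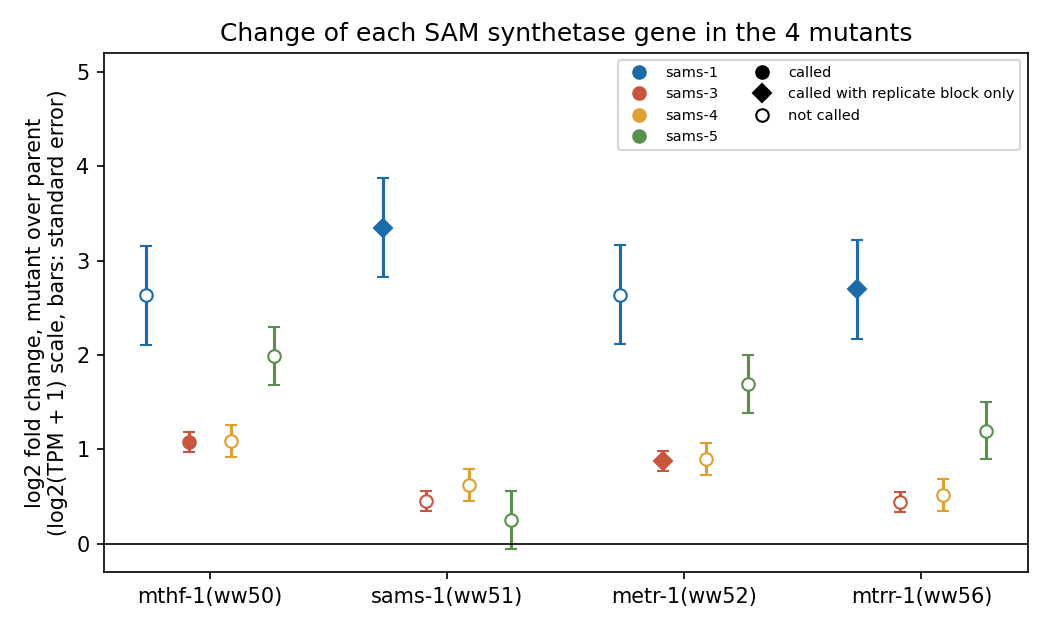
Log2 fold change of each SAM synthetase gene in each mutant over the parent, on the log2(TPM + 1) scale, with bars of 1 standard error from limma without the block. Filled circles are called without the block, diamonds with it only, and open circles by neither. *sams-1* has the largest value in every mutant, from 2.63 to 3.35, and *sams-5* ranges from 0.25 in *sams-1(ww51)* to 1.99 in *mthf-1(ww50)*.

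The paralogs did not order the strains alike. Mean *sams-1* was 569.6 ± 256 TPM in *sams-1(ww51)*, 370.45 ± 198 TPM in *mtrr-1(ww56)*, 331 ± 43.9 TPM in *metr-1(ww52)* and 328 ± 3.17 TPM in *mthf-1(ww50)*, against 56.9 ± 32.8 TPM in the parent (SD, n = 2 each). No neighbouring mutants in this order differed by more than their spread, and only the step to the parent did. Mean *sams-3* had another order, with 170.07 ± 13.7 TPM in *mthf-1(ww50)*, 147.6 ± 6.55 TPM in *metr-1(ww52)*, 109.3 ± 7.15 TPM in *sams-1(ww51)* and 109.0 ± 2.34 TPM in *mtrr-1(ww56)*, against 79.8 ± 1.60 TPM in the parent (SD, n = 2 each). Of its neighbours only *sams-1(ww51)* and *mtrr-1(ww56)* overlapped.

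*sams-4* kept the strain order of *sams-3*, with means of 141 ± 25.8 TPM in *mthf-1(ww50)*, 124 ± 17.2 TPM in *metr-1(ww52)*, 101 ± 11.4 TPM in *sams-1(ww51)* and 93.8 ± 4.91 TPM in *mtrr-1(ww56)*, against 65.5 ± 4.63 TPM in the parent (SD, n = 2 each). *mthf-1(ww50)* and *metr-1(ww52)* overlapped for this gene, as did *sams-1(ww51)* and *mtrr-1(ww56)*. Mean *sams-5* was 74.2 ± 4.34 TPM in *mthf-1(ww50)*, 59.9 ± 1.56 TPM in *metr-1(ww52)*, 43.6 ± 14.8 TPM in *mtrr-1(ww56)* and 22.4 ± 9.08 TPM in *sams-1(ww51)*, against 17.9 ± 2.01 TPM in the parent (SD, n = 2 each). Here *sams-1(ww51)* and the parent were the neighbours that did not separate.

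These differences among mutants did not pass the call. Over the 6 pairs of mutants and 4 genes, limma called 0 of 24 comparisons, with or without the block, and 10 had an unadjusted p under 0.05 (11 with the block). Taken over the 6 pairs and all tested genes, 0.0381% of comparisons were called (0.353% with the block) and 13.1% had an unadjusted p under 0.05 (22.3% with the block). The lowest adjusted p belonged to *sams-3* in *mtrr-1(ww56)* against *mthf-1(ww50)*, with a log2 difference of -0.63 (SE 0.106, limma adjusted p = 0.0774), and it was 0.0121 with the block. The largest difference was that of *sams-5*, -1.74 in *sams-1(ww51)* against *mthf-1(ww50)* (SE 0.306, limma adjusted p = 0.163).

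*sams-1(ww51)* is the strain in which a SAM synthetase itself is mutated, and it was also set against the mean of the other 3 mutants. *sams-1* was 0.69 higher there on the log2 scale (SE 0.429, limma adjusted p = 0.701), and its second library, at 388 TPM, lay below the first *mtrr-1(ww56)* library, at 511 TPM. *sams-5* differed by -1.38 (SE 0.250, limma adjusted p = 0.256), and both *sams-1(ww51)* libraries lay below the other 6 mutant libraries, as was the case for 2.45% of all tested genes. *sams-3* differed by -0.35 (limma adjusted p = 0.371) and *sams-4* by -0.21 (adjusted p = 0.71). Limma called 0 of 14418 genes in this comparison, with or without the block. At an unadjusted p under 0.05 it had 714 genes (4.95%) higher and 431 (2.99%) lower, *sams-3* and *sams-5* among the lower ones.

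The 4 genes together gave 714 ± 32.1 TPM in *mthf-1(ww50)*, 803 ± 261 TPM in *sams-1(ww51)*, 662 ± 69.2 TPM in *metr-1(ww52)* and 617 ± 181 TPM in *mtrr-1(ww56)*, against 220.2 ± 41.1 TPM in the parent (SD, n = 2 each). *sams-1* made up the larger part of that difference. The sum of the 3 chromosome IV genes alone was 331 ± 25.3, 246 ± 17.3, 385 ± 35.2 and 233 ± 4.87 TPM in *metr-1(ww52)*, *mtrr-1(ww56)*, *mthf-1(ww50)* and *sams-1(ww51)*, against 163 ± 8.24 TPM in the parent (SD, n = 2 each). The rank of the genes within a library differed as well. *sams-1* was first in all 8 mutant libraries, whereas *sams-3* was first in both parent libraries, by 80.9 against 80.2 TPM in one of them.

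As a percentage of the summed TPM, *sams-1* took 44.3% and 47.9% in *mthf-1(ww50)*, 76.1% and 62.9% in *sams-1(ww51)*, 50.9% and 48.9% in *metr-1(ww52)* and 68.6% and 47.1% in *mtrr-1(ww56)*, against 32.2% and 17.6% in the parent. No mutant library reached down to the parent range. *sams-5* took 9.08% ± 0.713, 7.75% ± 4.67, 10.4% ± 1.08 and 2.75% ± 0.237 in *metr-1(ww52)*, *mtrr-1(ww56)*, *mthf-1(ww50)* and *sams-1(ww51)*, against 8.21% ± 0.619 in the parent (SD, n = 2 each). By strain means, the *sams-5* share was lowest in *sams-1(ww51)*, where the *sams-1* share was highest. By library, the *sams-1* share of 68.6% in *mtrr-1(ww56)* exceeded the 62.9% in *sams-1(ww51)*. Shares of the same sum are not independent, since a larger share of *sams-1* leaves less for the other genes.

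**Figure D4:**
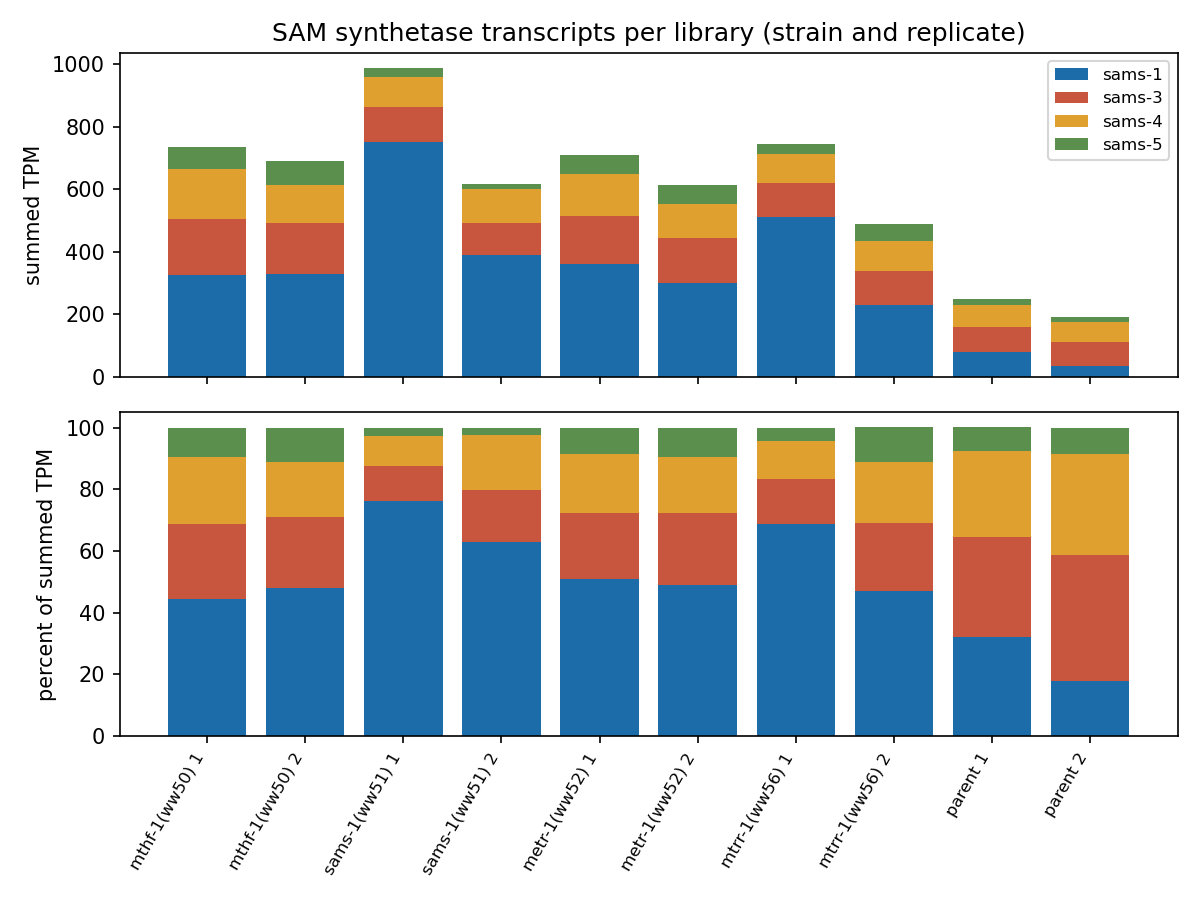
SAM synthetase transcripts in each library, as summed TPM (top) and as a percentage of that sum (bottom), with 1 bar per library of the 4 mutants and the parent. *sams-1* forms the largest segment in all 8 mutant libraries, from 44.3% to 76.1%, and 32.2% and 17.6% of the parent sums.

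Whether *sams-1* and a paralog differed by unequal amounts was tested on their ratio within each library. The mean log2 ratio of *sams-1* to *sams-3* was 1.52 ± 0.67 in the mutants and -0.62 ± 0.85 in the parent (SD, n = 8 and 2), a difference of 2.14 (exact two-sided permutation p = 0.0444, also after adjustment over 3 paralogs). The ratio to *sams-4* differed by 2.07 and that to *sams-5* by 1.53, with the same exact permutation p of 0.0444 each, which is the smallest that the 45 arrangements of 8 and 2 libraries allow. This test treats the 10 libraries as exchangeable and uses neither their numbers nor the strain that 2 mutant libraries share. With the parent label moved only within a replicate number, a test added after the data were seen, the exact two-sided permutation p was 0.08 for each paralog, the smallest that its 25 arrangements allow, so it cannot reach 0.05. For *sams-5* the margin was narrow: the lowest mutant ratio was 4.26, in *mtrr-1(ww56)*, and the highest parent ratio was 4.14. The *sams-1* to *sams-5* ratio was 26.1 and 24.4 in *sams-1(ww51)* and 15.4 and 4.26 in *mtrr-1(ww56)*, against 4.14 and 2.04 in the parent. It was 4.59 and 4.28 in *mthf-1(ww50)* and 5.93 and 5.102 in *metr-1(ww52)*, just above the same parent values.

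Over the 10 libraries, log2(TPM + 1) of the chromosome IV genes varied together, with a Pearson r of 0.95 for *sams-3* and *sams-4*, 0.88 for *sams-3* and *sams-5* and 0.76 for *sams-4* and *sams-5*. Values of *sams-1* correlated with them at 0.62, 0.66 and 0.44. Within the 8 mutant libraries alone, the chromosome IV genes stayed at 0.88, 0.80 and 0.56, while *sams-1* stood at -0.29, -0.39 and -0.54 with *sams-3*, *sams-4* and *sams-5*. These are descriptions, since the values come from the same libraries and 2 libraries share each strain.

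The neighbouring enzymes of the Met/SAM cycle were examined next, as a list of 5 genes. This list and those that follow were chosen with earlier results of these data known. The authors report higher levels in these mutants for most cycle genes, *pmt-2*, *pmp-5*, *msra-1* and *nhr-114*, and lower levels for *cbs-1*. Counts of calls on the lists are therefore descriptions and not independent support. Without the block, limma called 2 of 5 higher in each of *metr-1(ww52)* and *mthf-1(ww50)*, 1 in *mtrr-1(ww56)* and 0 in *sams-1(ww51)*, and none lower in any of the 4, where 0.25%, 0.153%, 0.111% and 0.0624% of all tested genes were called higher in that order. With the block, 5 of 5 were called higher in *mtrr-1(ww56)* and 4 of 5 in each other mutant, against 3.11% of all tested genes in *mtrr-1(ww56)*, 0.409% in *metr-1(ww52)*, 0.243% in *mthf-1(ww50)* and 2.46% in *sams-1(ww51)*. The median log2 fold change of the list was 2.22, 2.19, 2.19 and 2.30 in *metr-1(ww52)*, *mtrr-1(ww56)*, *mthf-1(ww50)* and *sams-1(ww51)*, beside the all-gene medians of 0.04 to 0.12. *metr-1*, the methionine synthase gene, rose by 3.12 in *metr-1(ww52)*, 2.88 in *mtrr-1(ww56)* and 3.14 in *mthf-1(ww50)* (limma adjusted p = 0.00472, 0.0088 and 0.00382), and its value in *sams-1(ww51)* was 2.79 (adjusted p = 0.012), called with the block (limma adjusted p = 0.00256). *ahcy-1*, whose product splits S-adenosylhomocysteine, had its smallest difference in *sams-1(ww51)*, 0.64 against 1.29 to 1.56 in the other mutants, and was called with the block in *mtrr-1(ww56)* only (limma adjusted p = 0.00683).

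Of 15 genes whose products consume SAM, none was called without the block in any mutant, and the median log2 fold changes were 0.12, 0.23, 0.12 and 0.06 in *metr-1(ww52)*, *mtrr-1(ww56)*, *mthf-1(ww50)* and *sams-1(ww51)*, beside 0.09, 0.05, 0.12 and 0.04 for all genes. With the block, 0.243% to 3.11% of all tested genes were called higher, and the exception on the list was *pmt-2*. This gene encodes a phosphoethanolamine methyltransferase of phosphatidylcholine synthesis. It was measured at 775 and 681 TPM in *mthf-1(ww50)*, 1002 and 641 TPM in *sams-1(ww51)*, 691 and 557 TPM in *metr-1(ww52)* and 922 and 569.7 TPM in *mtrr-1(ww56)*, against 225 and 176 TPM in the parent. Its log2 fold change was 1.64, 1.86, 1.86 and 2.00 in *metr-1(ww52)*, *mtrr-1(ww56)*, *mthf-1(ww50)* and *sams-1(ww51)*, with blocked limma adjusted p between 0.003 and 0.00576. *pmt-1*, which acts in the preceding methylation, had log2 fold changes of -0.05, 0.46, 0.08 and 0.77 in the same order and was called by neither fit. The protein methyltransferase genes *prmt-1*, *prmt-5*, *met-2* and *set-2* all lay between -0.50 and 0.45 and were not called. Other protein methyltransferase genes of the list, *icmt-1* and *pcm-1*, had higher values. These were 0.93, 0.79, 0.83 and 0.48 for *icmt-1* and 0.33, 0.71, 0.33 and 0.72 for *pcm-1*, in the same order of mutants. Both lay above both parent libraries in all 8 mutant libraries, as did 12.9% of all tested genes, and neither was called by either fit.

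Homocysteine leaves the cycle through transsulfuration, and 0 of 4 genes of that list were called in any single mutant by either fit. Of all tested genes, 0.0139% to 0.0416% were called lower without the block and 0.0624% to 1.06% with it, over the 4 mutants. The member furthest from 0 was *cbs-1*, a cystathionine beta-synthase gene, at 4.34 to 7.53 TPM in the 8 mutant libraries against 25.8 and 16.1 TPM in the parent. Its mean over the mutants fell by 1.62 on the log2 scale (SE 0.189), which was called with the block (limma adjusted p = 0.00643, with 0.381% of all tested genes called lower) and not without it (adjusted p = 0.015, with 0.0277% called lower). Among 5 genes of vitamin B12 and methionine supply and their regulators, 2 were called higher in *mthf-1(ww50)* and 1 in each other mutant, and 3 in each mutant with the block. Of all tested genes, 0.0624% to 0.25% were called higher without the block and 0.243% to 3.11% with it, over the 4 mutants. These 3 were *pmp-5*, an ABC transporter gene, *msra-1*, a methionine sulfoxide reductase gene that returns oxidized methionine to use, and *nhr-114*, which encodes a nuclear hormone receptor. *nhr-114* was highest in the mutants in which *sams-3* was highest, with 97.2 and 103.5 TPM in *mthf-1(ww50)*, 88.3 and 79.3 TPM in *metr-1(ww52)*, 53.99 and 33.6 TPM in *sams-1(ww51)* and 52.6 and 47.0 TPM in *mtrr-1(ww56)*, against 16.3 and 9.67 TPM in the parent.

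Because *sams-3*, *sams-4* and *sams-5* are known METT-10 targets, 10 genes of that route were listed: *mett-10*, the splice-site recognition genes *uaf-1* and *uaf-2*, and *smg-1* to *smg-7* of nonsense-mediated decay. None was called in any mutant by either fit, and the lowest adjusted p was that of *smg-7* in *mtrr-1(ww56)*, with a log2 fold change of -0.36 (limma adjusted p = 0.25, or 0.0914 with the block). *mett-10* itself was measured at 5.93 to 9.11 TPM in the mutants against 6.95 and 6.36 TPM in the parent, so the mutants spanned the parent values. The median log2 fold change of the list was 0.15, -0.11, 0.14 and 0.04 in *metr-1(ww52)*, *mtrr-1(ww56)*, *mthf-1(ww50)* and *sams-1(ww51)*, beside 0.09, 0.05, 0.12 and 0.04 for all genes.

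**Figure D5:**
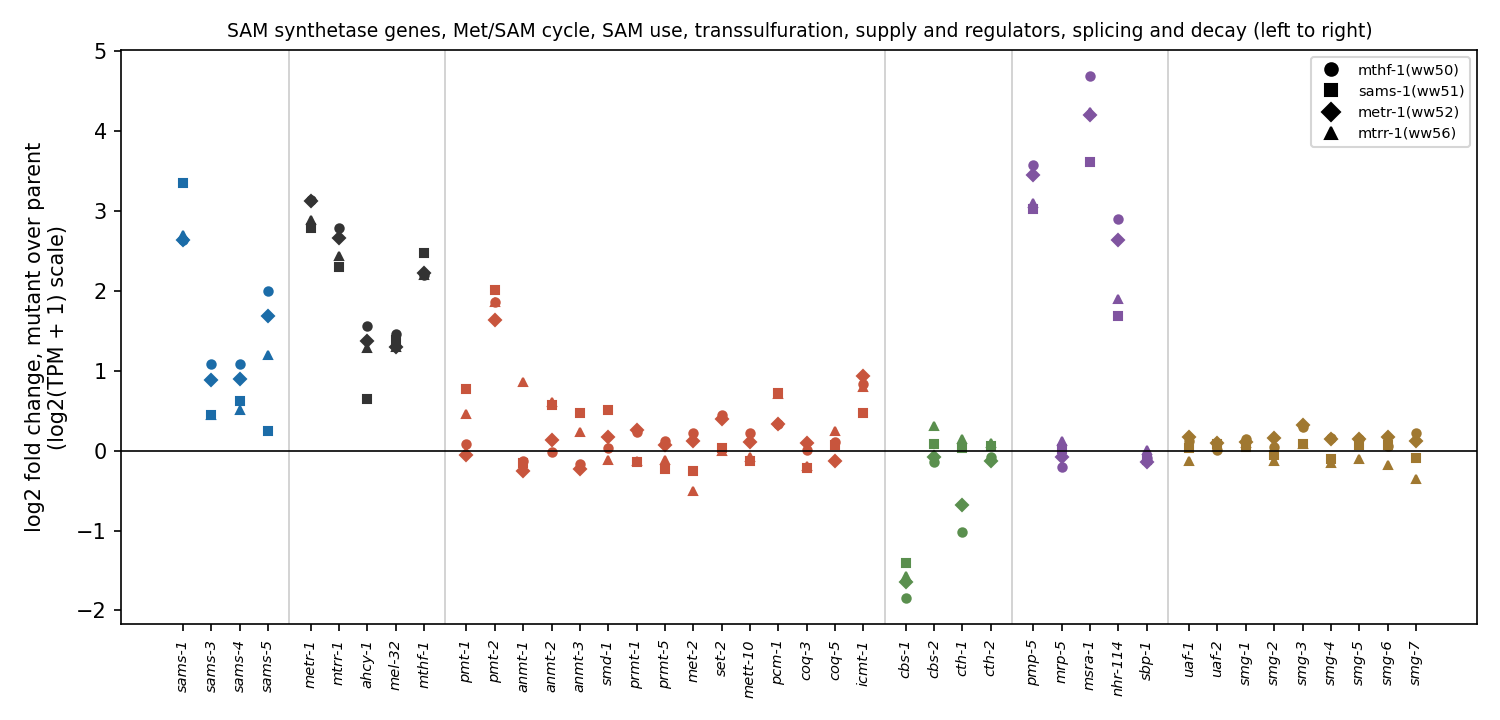
Log2 fold change over the parent (log2(TPM + 1) scale) of the SAM synthetase genes and of 5 lists of pathway genes, with 1 symbol per mutant and vertical lines between lists. The 5 cycle genes lie between 0.64 and 3.14 in every mutant, whereas *mett-10* and the *uaf* and *smg* genes lie between -0.36 and 0.32.

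The genes most like each member were those with the highest Pearson r of log2(TPM + 1) over the 10 libraries, among the 10784 tested genes that averaged 5 TPM or more. For *sams-1* they were *pmt-2* (r = 0.98), *mthf-1* (0.98), F17H10.1 (0.97), the phosphoenolpyruvate carboxykinase gene *pck-2* (0.97) and *mel-32* (0.96), a serine hydroxymethyltransferase gene. For *sams-3* they were 2 gene entries named F07B7.2 with equal values (0.99 each), *farl-11* (0.96), M116.2 (0.95) and *nhr-114* (0.95). The same F07B7.2 entries came first for *sams-4* (0.95 each), followed by *hgrs-1* (0.94), *cpna-5* (0.92) and the palmitoyl-protein thioesterase gene *ppt-1* (0.91). For *sams-5* they were *clec-47* (0.95), *spg-20* (0.92), Y38H6C.23, ZK1098.11 and *ahcy-1* (0.91 each). *sams-1* and *sams-5* thus had 3 genes and 1 gene of the pathway lists among their 5 nearest, *sams-3* had 1 and *sams-4* had 0. These counts are descriptions, since the lists were chosen with earlier results of the same 10 libraries known. The correlations also include the step from the parent to the mutants.

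Marker genes of several tissues were summed in each library beside these results. Epidermal and molting markers exceeded both parent libraries in all 8 mutant libraries for 7 of 7 genes (12.9% of all tested genes did), at summed levels of 1275 to 4596 TPM in the mutants against 345 and 919.8 TPM in the parent. In every strain the first replicate had the higher sum. The first replicate was also higher for *sams-3* in every strain, as for 11.4% of all tested genes, and for *sams-1* in 4 of 5 strains. For *sams-4* and *sams-5* the higher replicate differed between strains. The sum of 6 yolk protein genes was higher in the second replicate of every strain. Those yolk sums ranged from 147 to 3572 TPM in the mutants against 1140.4 and 4121 TPM in the parent. The 7 intestinal markers summed to 977 to 1494 TPM in the mutants against 1363 and 1764 TPM in the parent, with none of the 7 above or below both parent libraries throughout, and the 4 neuronal markers summed to 209.7 to 285 TPM against 183 and 189.9 TPM, with 1 of 4 genes above both. The 7 germline markers summed to 710.4 and 839 TPM in *mthf-1(ww50)*, 714 and 824 TPM in *metr-1(ww52)*, 566 and 625 TPM in *sams-1(ww51)* and 391 and 539 TPM in *mtrr-1(ww56)*, against 669 and 779 TPM in the parent. By their means, the mutants stood in the same order as for *sams-3* and *sams-4*, and the parent lay within the mutant range. The 7 oocyte markers summed to 42.9 and 119.7 TPM in *mtrr-1(ww56)*, below both parent libraries at 207 and 568 TPM, and to 113 to 685 TPM in the other 3 mutants, and the second replicate had the higher sum in every strain. No marker of any list was at 0 in any library. The part of the epidermal, molting, yolk, germline and oocyte differences in the *sams* results was not tested.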

How the data were processed

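The authors sequenced 2 biological replicates of each of the 5 strains with 100 bp paired-end reads, mapped them with bowtie2 to the genome of WormBase release WS271 and used RSEM with its default settings to estimate TPM. The deposited table holds these TPM values, rounded to 2 decimals, for 46903 genes, and each library sums to 1000000. RSEM divides reads that fit several genes among them. Sequencing depth is lost in TPM, and the methods name no strand setting. No column was left without a sample.

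Symbols were matched for 44018 genes, and coordinates came from the WBcel235 annotation. The *sams* genes, the lists and the tests were chosen with earlier results of these data known. The genes named are the 4 *sams* genes, the genes of the 5 pathway lists and, for each *sams* gene, the 5 most correlated genes. log2(TPM + 1) of the 14418 genes that averaged 1 TPM or more was fitted with limma 3.58.1 (R 4.3.3), with 1 mean per strain over all 10 libraries and a mean-variance trend. Tests were two-sided, and p-values were adjusted over all tested genes by the Benjamini-Hochberg method. Genes were called where the adjusted p-value was below 0.01 and the fold change above 1.5. Fold changes on this scale understate those of genes with low levels. The ratio of *sams-1* to each paralog was tested by exact permutation over libraries, and, as an alternative chosen after seeing the data, within replicate numbers.

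Replicates were numbered 1 and 2 in every strain. Over the 10 pairs of strains, the replicate differences of all genes correlated at 0.166 to 0.736, so the numbers were taken to pair the libraries, although no source says what equal numbers share. Blocked values stand beside the results of the *sams* genes whose call they change. Alternatives were the block, median-ratio scaling, quantile normalization, no trend, a pseudocount of 0.1, a filter at 5 TPM or none, fits of 1 mutant and the parent, an adjusted p cutoff of 0.05, and the removal of each library. Tables were made in Python 3.11.15 (pandas 2.3.3, numpy 2.4.6), permutation tests with scipy 1.17.1 and figures with matplotlib 3.10.9. No sequences of these genes were used here.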

Additional observations from a re-analysis of the deposited data

How the results depend on the processing

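With 2 libraries per strain and no known counting error, differences among mutants and the single calls rest on a spread pooled over 5 strains. Of the 16 comparisons of a *sams* gene with the parent, 1 was called as described, 4 with the replicate block and 4 at an adjusted p cutoff of 0.05. The share of all tested genes called at that cutoff was not computed, so the last count has no reference. The count was 0 with median-ratio scaling, with quantile normalization, without the mean-variance trend and in fits of 1 mutant and the parent, and 0 in each of the fits that left out 1 library. In the fits with a library left out, the lone library of a strain was assumed to vary like the others. The only call, *sams-3* in *mthf-1(ww50)*, stayed called with a pseudocount of 0.1, with no filter, with a filter at 5 TPM and with the block. Quantile normalization moved the median log2 fold change of all genes by -0.11 in *mthf-1(ww50)*, the largest such shift of a scaling against the parent, and no *sams* gene changed direction under either scaling. The cause of these changes was not tested.

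The mean difference of *sams-1* over the 4 mutants was 2.83 with the replicate block, called at a limma adjusted p of 0.00301, and 2.22 to 3.44 with 1 library left out. *sams-5* in *sams-1(ww51)*, which was not called, turned to -0.16 without *sams-1(ww51)* replicate 1 and was 0.66 without replicate 2. The excess of *sams-1* in *sams-1(ww51)* over the mean of the other mutants ranged from 0.22 to 1.17 with 1 library left out and was called in no alternative. Over pairs of mutants the count of calls was 0 in all 17 alternatives. The log2 ratios of *sams-1* to *sams-3*, *sams-4* and *sams-5* differed by 1.53 to 2.74, 1.52 to 2.62 and 1.02 to 2.04 with 1 library left out, where too few arrangements remained for a test at 0.05. With the replicate block, chosen after seeing the data, these differences were 2.14, 2.07 and 1.53 with an exact permutation p of 0.08 each, and 25 arrangements can give no lower value. The block changed no other call of a *sams* gene than those given above.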
